A study of Arabidopsis thaliana with 124 samples.

Results

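The genomic sites bound by GBF3 (AT2G46270) were compared between Arabidopsis thaliana seedlings given abscisic acid (ABA) and seedlings given ethanol (EtOH) alone. A site is a peak of one of the authors' 2 ChIP-seq peak lists for GBF3. Each peak has a −log10 p, the authors' measure of how far its reads exceed the control. The ABA list starts at a −log10 p of 17.98 and the EtOH list at 16, so peaks of 18 or more were kept in both. This left 16312 of 16320 ABA peaks and 13423 of 14247 EtOH peaks, 29735 of the 326698 peaks deposited for the whole series. Peaks of the 2 treatments that overlap by at least 1 bp are called shared, and the others ABA-only or EtOH-only. GBF3 was tagged with the fluorescent protein YPet by recombineering in the Col-0 accession and pulled down by a polyclonal anti-GFP antibody. Whole seedlings were kept in the dark for 3 days and then received 10 µM ABA or an ethanol mock for 4 h. Each treatment has 3 libraries, which the authors combined into 1 list, so a difference between the lists carries no replicate error and no p-value. The control is untagged Col-0 chromatin taken through the same precipitation, and both of its 2 libraries are labelled as ABA-treated. The labels do not say how many transgenic lines were used, and no value from the files bears on whether the tagged protein replaces the native one.

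GBF3 is a basic leucine zipper (bZIP) protein of the G-box binding factor group. These proteins bind as dimers to DNA elements with an ACGT core, above all the G-box, which lies in promoters of light-regulated, hypoxia-responsive and ABA-responsive genes. The ABF proteins, the bZIP factors that act at the end of the ABA signalling chain, recognise closely related elements, and ABA itself is the hormone of drought and seed dormancy. The series also covers GBF2, a close relative of GBF3, the ABF proteins ABF1, ABF3 and ABF4, and 16 factors of other families, each with its own ABA and EtOH lists.

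Most GBF3 sites were present under both treatments. Of the 16312 ABA peaks, 13581 (83.3%, 95% Wilson interval 82.7 to 83.8) overlapped an EtOH peak, and 2731 (16.7%) did not. Of the 13423 EtOH peaks, 13032 (97.1%, interval 96.8 to 97.4) overlapped an ABA peak, and 391 (2.91%) did not. In whole seedlings, binding in fewer cells and weaker binding per cell cannot be told apart. The surplus of ABA-only over EtOH-only peaks was not kept at equal list length. For this the ABA list was cut to its 13423 strongest peaks, the full length of the EtOH list. Then 92.7% of ABA peaks and 90% of EtOH peaks were shared. This left 983 ABA-only and 1342 EtOH-only peaks, so that the EtOH-only class became the larger one. Cutting the ABA list alone can only lower the ABA-only count and raise the EtOH-only count. The direction of this shift was therefore fixed beforehand. Read depth is unknown, and its part in the length of the lists was not tested. The peak calls next to the threshold also matter. The cut removed 8 ABA peaks between 17.98 and 17.99 and 824 EtOH peaks between 16 and 17.99, while 423 ABA and 344 EtOH peaks between 18 and 19 were kept. Of the 2731 ABA-only peaks, 519 (19%) overlapped one of the EtOH peaks that the cut had removed.

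The shared sites lay at nearly the same positions in both lists. For 12006 shared peaks that pair one-to-one, the ABA and EtOH summits (the positions of highest enrichment) were a median of 10 bp apart, and 91.9% of pairs had summits within 50 bp of each other. The paired peaks had a median width of 869.5 bp under ABA and 971 bp under EtOH, and 7889 pairs (65.7%) were narrower under ABA. Likewise 690 EtOH peaks overlapped 2 or more ABA peaks, whereas 193 ABA peaks overlapped 2 or more EtOH peaks. The overlap itself chose the classes, so the strength of each class is given only as a description. The median −log10 p was 23.8 for ABA-only, 20.8 for EtOH-only and 67.8 for shared peaks (ABA list), with highest values of 71.2, 40.6 and 141.9. The median width was 427 bp for ABA-only, 769 bp for EtOH-only and 893 bp for shared peaks. The authors' fold enrichment over control reached 3.47 among ABA-only, 2.67 among EtOH-only and 4.87 among shared peaks. The largest peaks of each list were therefore all shared.

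The textbook G-box genes had strong peaks in both lists. ADH1, the alcohol dehydrogenase gene whose promoter G-box is a well-studied site of this protein group, had a peak at chr1:28974841-28975547 (TAIR10) under ABA with a −log10 p of 127.3 and a 4.44-fold enrichment, against chr1:28974838-28975533 with 130.7 and 4.42-fold under EtOH. The summits lay 12 bp and 11 bp outside the gene. RBCS1A, a small subunit of Rubisco and a classic light-regulated G-box gene, had a −log10 p of 122.9 under ABA and 126.0 under EtOH. The peaks over GBF3's own gene were the widest of both lists, 16701 bp under ABA (chr2:18988459-19005159) and 16656 bp under EtOH (chr2:18988480-19005135). Their summits were placed at another gene, so GBF3 is counted below as having no summit. Peaks over the GBF3 gene were also present in 19 lists of other factors, 12 ABA and 7 EtOH lists, and the widest of these was 3544 bp. The tagged gene is present in the GBF3 seedlings but not in the untagged control. Its part in the width of the GBF3 peaks here was not tested, so this width is not read as the extent of binding.

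ABA-only sites were more often inside genes than shared or EtOH-only sites. Of the ABA-only summits, 51.3% (interval 49.4 to 53.2, 1401 of 2731) lay inside a protein-coding gene, compared with 29.2% (24.9 to 33.9, 114 of 391) of EtOH-only and 37.1% (36.3 to 37.9, 5035 of 13581) of shared summits. Outside genes but within 1000 bp of one lay 31.3% of ABA-only, 50.6% of EtOH-only and 46.4% of shared summits. The intervals cover counting error only, since there is 1 list per treatment.

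**Figure D1:**
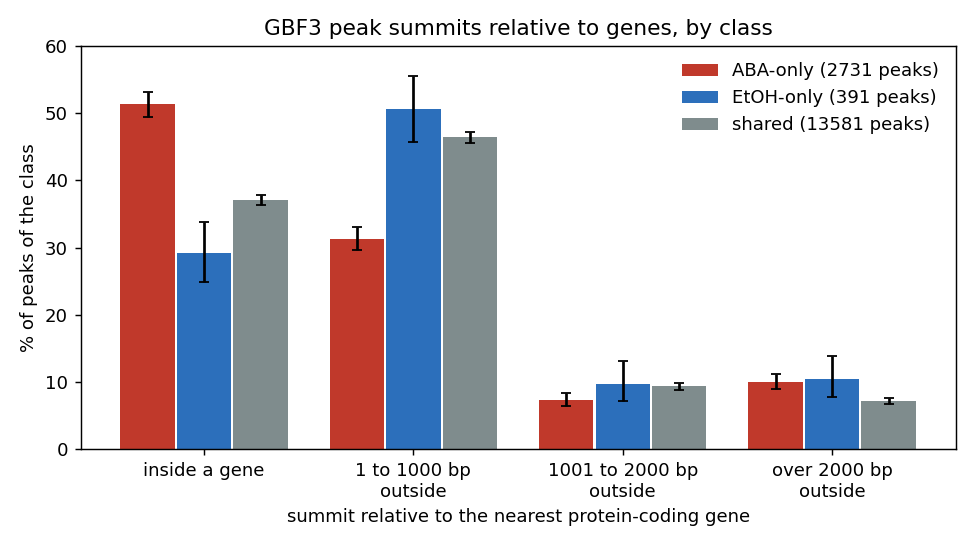
Share of GBF3 peak summits by distance to the nearest protein-coding gene for ABA-only, EtOH-only and shared peaks, in % of the class, with 95% Wilson intervals that cover counting error only. The ABA-only bar is the highest inside genes (51.3%) and the lowest between 1 and 1000 bp outside them (31.3%).

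The ABA-only summits inside genes were also deeper inside. Their median distance to the nearer end of the gene was 614 bp, against 187.5 bp for EtOH-only and 239 bp for shared summits, in genes with median lengths of 2856, 2858 and 2492 bp. The outer 10% of the gene length at either end held 25.4% of the in-gene ABA-only summits (interval 23.2 to 27.8), 54.4% of the EtOH-only ones (45.2 to 63.2) and 47.2% of the shared ones (45.8 to 48.6). The gene table holds no strand, so the start and end of a gene were not told apart. These distances were not compared at matched peak width or strength. Windows of 1 Mb with few genes, 24 of 121 windows with at most 148 genes each, held 10.4% of ABA-only (9.28 to 11.6), 6.39% of EtOH-only (4.37 to 9.27) and 5.40% of shared summits (5.03 to 5.79), beside 6.74% of all protein-coding genes. By chromosome the classes were alike. Chromosome 1 held 24.8% of ABA-only, 22.8% of EtOH-only and 26.7% of shared peaks, and chromosome 2 held 15.1%, 17.1% and 15.5% of them.

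The difference in position between ABA-only and shared peaks was as large at matched peak strength and shrank at matched peak width. Among peaks with a −log10 p from 18 to below 32, 50.9% of ABA-only and 33.3% of shared summits (ABA list) lay inside genes. The same range held 29.2% of EtOH-only and 38.1% of shared summits (EtOH list) inside genes. Among peaks of 300 to 399 bp, 63.6% of ABA-only (interval 60.4 to 66.7, n = 906) and 56.2% of shared summits (52.9 to 59.5, n = 843) did. The shares of these classes came together in wider peaks. At 400 to 599 bp they were 44.3% for ABA-only and 43.8% for shared peaks, at 600 to 999 bp 38.7% and 37.0%, and at 1000 bp or more 28.6% and 31.2%. Peaks narrower than 400 bp made up 1247 of the 2731 ABA-only but 877 of the 13581 shared peaks, and without them 39.9% of ABA-only and 35.7% of shared summits lay inside genes. Between EtOH-only and shared peaks the difference did not shrink at every width. At 600 to 999 bp 23.8% of EtOH-only (interval 17.8 to 31.2, n = 151) and 37.0% of shared summits (35.6 to 38.4) lay inside genes. At 400 to 599 bp the shares were 36.4% of EtOH-only (27.1 to 46.8, n = 88) and 43.8% of shared summits, and at 1000 bp or more 26.4% and 31.2%. Why narrow peaks lie inside genes was not tested.

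**Figure D2:**
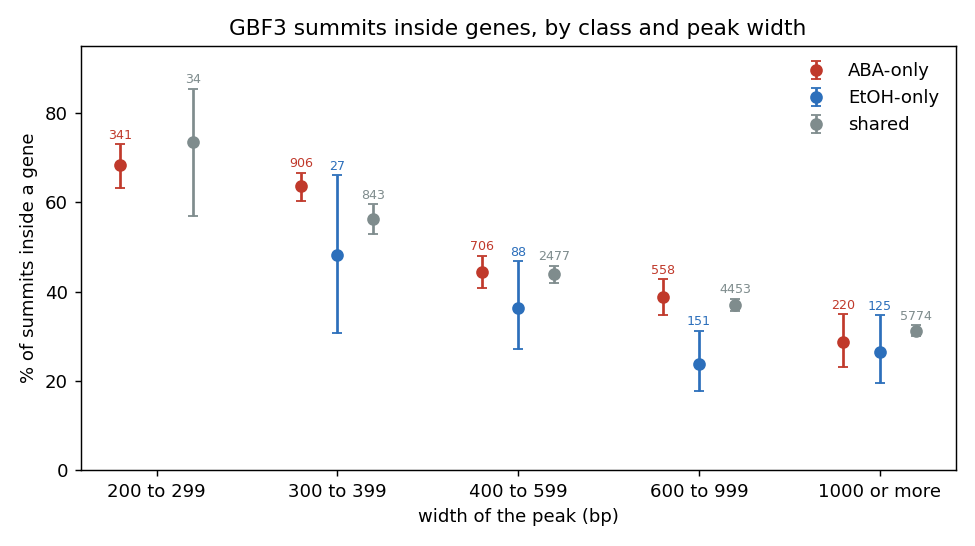
Share of GBF3 summits inside protein-coding genes (in %) against the width of the peak in bp, for ABA-only, EtOH-only and shared peaks, with 95% Wilson intervals and the number of peaks above each point. The share falls with width for ABA-only and shared peaks, and the ABA-only and shared points lie close together from 400 bp upward. No EtOH-only peak was under 300 bp.

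The same split was made for the other factors, leaving out classes of fewer than 50 peaks. For GBF3 the share inside genes was 14.2 percentage points higher for ABA-only than for shared peaks. For 17 other factors this difference ran from -4.96 (ANAC032) to 4.71 points (ZAT6), with a median of -0.758. GBF2 had -4.87 points (29.7% of ABA-only and 34.6% of shared summits). For EtOH-only against shared peaks GBF3 had -7.92 points, and 15 other factors had -3.97 to 13.99. The ABA-only peaks of GBF3 were also narrower than those of 19 other factors, 427 bp against medians from 488 bp (NFYB2) to 1368 bp (ANAC032). NFYB2, the factor whose lists exceed those of GBF3 in length, had 37.3% of ABA-only and 34.4% of shared summits inside genes. GBF3 thus lay outside the range of the other factors in both differences and in width. The ABA-only difference and the width of GBF3 cannot be taken as separate traits, since this difference shrank without its narrow peaks. Without peaks under 400 bp, 39.9% of its ABA-only and 35.7% of its shared summits lay inside genes. Its EtOH-only difference did not shrink in this way, with 27.75% of EtOH-only summits inside genes. The other factors were not filtered in this way, so the differences were not compared at matched width. The lists share controls and are 1 per factor and treatment, so this is a description without a test.

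**Figure D3:**
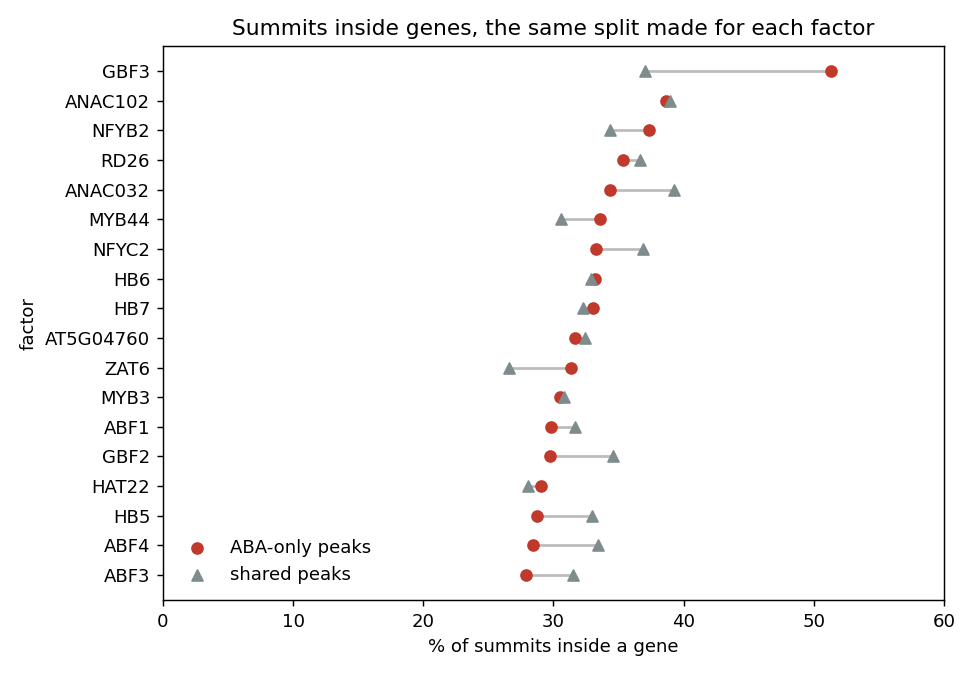
Share of summits inside protein-coding genes (in %) for ABA-only (circles) and shared peaks (triangles) of GBF3, in the top line, and of 17 other factors ordered by their ABA-only share. The GBF3 circle lies at 51.3% and its triangle at 37.1%, while no other circle is more than 4.71 points to the right of its triangle.

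The classes also differed in how many other factors were found at the same sites, a measure that took no part in choosing them. With the ABA lists of the 20 other factors, an ABA-only GBF3 peak overlapped peaks of a median of 1 other factor, an EtOH-only peak 4 and a shared peak 11. No other factor was found at 46.5% of ABA-only peaks (1271), 13.3% of EtOH-only peaks (52) and 7.57% of shared peaks (1028). At least 10 of the 20 factors were found at 16.4% of ABA-only (447), 14.8% of EtOH-only (58) and 56.9% of shared peaks (7721). Wider peaks have more room for overlap, and the classes differ in width as given above. The classes differ in strength too, and the numbers of factors per peak were not compared at matched strength. In the EtOH lists, 1 of the 20 factors covered a larger share of EtOH-only than of shared peaks over all strengths. Among peaks below a −log10 p of 32 there were 12 such factors with shared peaks taken from the EtOH list. With shared peaks taken from the ABA list there were 6. Requiring 50% of both peaks to overlap, the median share of peaks overlapped by a factor was 11.4% for ABA-only and 45.3% for shared peaks (ABA lists) and 11.6% for EtOH-only peaks (EtOH lists), where 1 bp gave 19.1%, 58.5% and 16.5%.

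Over peaks of all strengths GBF2 differed more between ABA-only and shared peaks, in percentage points, than any of the other 19 factors, a place it did not hold among weak peaks. Its ABA peaks overlapped 8.24% of ABA-only (225 of 2731, interval 7.27 to 9.33), 12.02% of EtOH-only (47 of 391, 9.16 to 15.6) and 73.8% of shared GBF3 peaks (10020 of 13581, 73.0 to 74.5). Its EtOH peaks overlapped 3.88% of ABA-only, 26.6% of EtOH-only and 71.1% of shared peaks. Peak strength moved with this difference, and its part was not tested. Among GBF3 peaks below a −log10 p of 32, GBF2 under ABA was at 6.58% of ABA-only, 11.5% of EtOH-only and 28.9% of shared peaks. By the size of the difference between ABA-only and shared peaks GBF2 took place 7 of 20 there, with 22.4 points, behind HB5 with 29.0, HB6 with 28.9, NFYB2, MYB44, ABF3 and AT5G04760. In the order of the 20 factors GBF2 took place 17 at ABA-only peaks and place 2 at shared peaks. The first places at ABA-only peaks were taken by NFYB2 (36.9%), a subunit of the CCAAT-binding NF-Y complex, the homeodomain-leucine zipper protein HB7 (33.8%), the zinc finger protein ZAT6 (31.3%), the NAC factor RD26 (30.7%) and ABF3 (27.1%). NFYB2 (79.2%), GBF2 (73.8%), ABF3 (71.6%) and HB7 (66.3%) led at shared peaks.

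In the EtOH lists HB5, a homeodomain-leucine zipper protein, overlapped 57.8% of EtOH-only GBF3 peaks (226 of 391, interval 52.9 to 62.6), against 14.6% of ABA-only and 52.2% of shared peaks. Over peaks of all strengths HB5 was the only one of the 20 factors that covered a larger share of EtOH-only than of shared peaks in its EtOH list. The other proteins of its family did not do so. HB6 was at 44.5% of EtOH-only and 50.7% of shared peaks, HAT22 at 37.6% of EtOH-only and 41.4% of shared peaks, and HB7 at 10.5% of EtOH-only and 22.0% of shared peaks. Any of these 4 proteins was found at 62.2% of EtOH-only and 59.0% of shared peaks. NFYB2 was at 52.7% of EtOH-only peaks, and the MYB-related protein AT5G04760 at 44.5%, as HB6 was. Among peaks below a −log10 p of 32, with shared peaks taken from the EtOH list, 12 of the 20 factors covered a larger share of EtOH-only than of shared peaks. HB5 then had 57.4% of EtOH-only and 36.4% of shared peaks, HB6 43.6% and 34.5%, and AT5G04760 44.1% and 34.5%. HB5, HB6 and HAT22 were found together at 123 EtOH-only peaks (31.5%) and at 36.0% of shared peaks, and 28.5% of these EtOH-only and 30.6% of these shared summits lay inside genes.

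At least 1 of the 3 ABF proteins was found under ABA at 31.0% of ABA-only (847), 40.7% of EtOH-only (159) and 76.0% of shared peaks (10317). In their EtOH lists the shares were 12.7%, 32.5% and 63.6%. An ABF peak was present under ABA and absent under EtOH at 510 ABA-only peaks (18.7%), 58 EtOH-only peaks (14.8%) and 1802 shared peaks (13.3%), so it was also found where GBF3 was bound in both treatments. All 3 ABF proteins were at 286 ABA-only peaks (10.5%) and 49.9% of shared peaks, and 29.7% of these ABA-only and 31.4% of these shared summits lay inside genes.

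**Figure D4:**
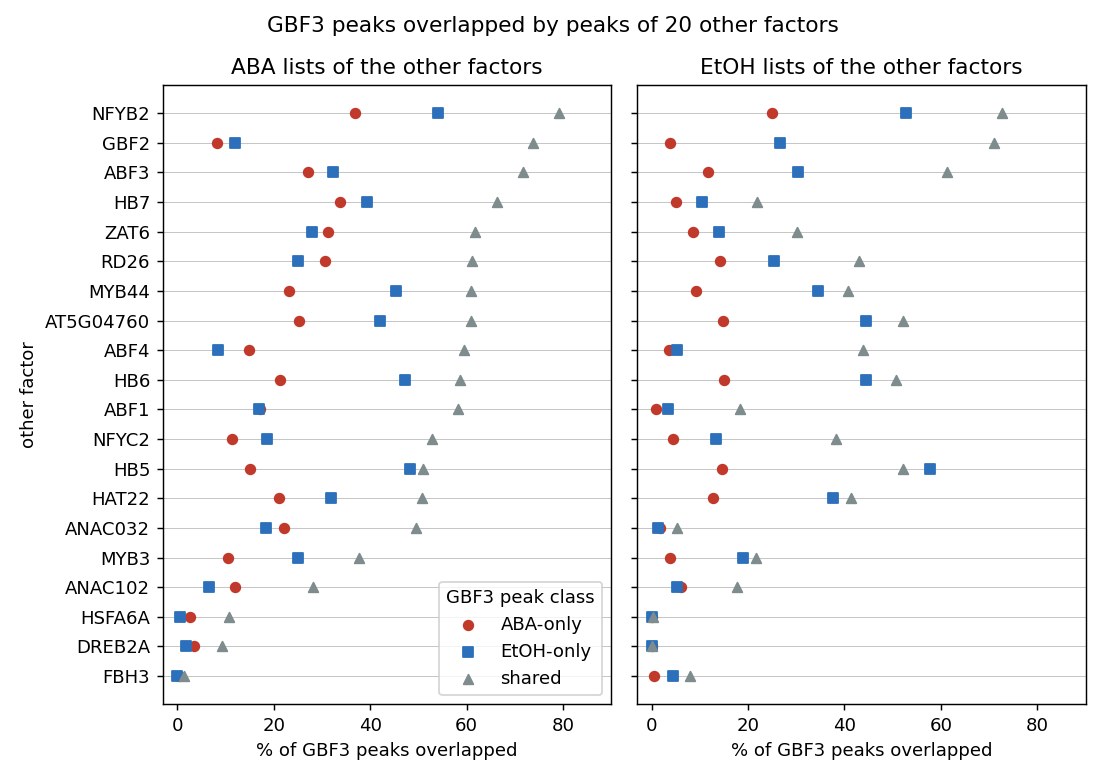
Share of ABA-only (circles), EtOH-only (squares) and shared GBF3 peaks (triangles) overlapped by at least 1 bp by a peak of each of 20 other factors, in %, with the factors' ABA lists in the left panel and their EtOH lists in the right one. GBF2 has circles at 8.24% and 3.88% but triangles at 73.8% and 71.1%, and HB5 is the factor whose square (57.8%) passes its triangle (52.2%) in the EtOH panel, over peaks of all strengths.

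Within the ABA-only class, width and position varied with the number of other factors. ABA-only peaks with no other factor had a median width of 333 bp, and 66.6% of their summits lay inside genes (847 of 1271, interval 64.0 to 69.2). With 1 to 9 other factors the width was 520 bp and the share 41.2%, and with 10 or more it was 708 bp and 30.6% (137 of 447, interval 26.6 to 35.1). Shared peaks ran the same way. Those with no other factor were 425 bp wide with 55.9% inside genes, and those with 10 or more were 1167 bp wide with 32.4% inside. At 10 or more other factors the shares inside genes of ABA-only and shared peaks thus differed by less than their counting intervals. EtOH-only peaks with no other factor in the EtOH lists had 32.8% inside genes (20 of 61), and those with 10 or more had 30.8% (12 of 39).

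The strongest ABA-only peaks with a gene within 2000 bp included peaks with many other factors and a peak with none. The first was inside AIR3, a gene for a subtilisin-like protease first found through its induction by auxin in root cultures, at chr2:1404811-1405730 with a −log10 p of 64.9 and 3.21-fold enrichment. It overlapped ABA peaks of 13 other factors, among them GBF2 and all 3 ABF proteins, and EtOH peaks of none. The second lay 299 bp from AT1G75160 (63.7), again with 13 factors under ABA and none under EtOH, and that gene had a further GBF3 summit in the EtOH list. SKIP1, which encodes an SKP1-interacting F-box protein, had its peak inside the gene (63.2) with 14 factors under ABA and 6 under EtOH. The fourth peak, inside AT3G50010 (chr3:18538253-18538593), was 341 bp wide with a −log10 p of 59.7 and overlapped no peak of any other factor in either treatment. AHP1, a histidine phosphotransfer protein of cytokinin signalling, had a peak 1002 bp away (58.9, 16 factors under ABA and 6 under EtOH), and cpHsc70-2, a chloroplast chaperone of the Hsp70 family, one at 336 bp (56.8, 17 factors under ABA and 10 under EtOH). The other 2 of the first 8 were at AT1G27200 (58.9) and AT4G12580 (55.9), with 9 and 6 factors under ABA. AT1G27200, like AT1G75160, had another GBF3 summit in the EtOH list.

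The strongest EtOH-only peaks had lower values, and 6 of the first 8 lay outside genes. The first was 694 bp from AT4G36120 (chr4:17091771-17092665, −log10 p 40.6, 2.67-fold) with 14 factors in the ABA lists and 16 in the EtOH lists, so the region was not free of binding under ABA. AT3G18190 had the second at 38 bp (37.6), with HB5, HB6, MYB3 and MYB44 in both treatments. The fourth was inside ACA1 (AT3G52720), the gene of an alpha-type carbonic anhydrase, with 33.8 and no other factor in either treatment. CCR2 (AT2G39180), a receptor-like kinase related to CRINKLY4, and PLAT2, a PLAT domain protein, each had an EtOH-only peak (33.6 and 33.1) beside another GBF3 summit in the ABA list (51.1 and 115.7). The remaining peaks of the first 8 lay at AT2G21210 (34.3), AT1G48330 (33.2) and AT1G33950 (32.9). Of these 8 peaks 6 overlapped HB5 and HB6 peaks in the EtOH lists, as did 0 of the first 8 ABA-only peaks and 6 of the first 8 shared peaks. TCP4, a growth-regulating TCP factor, and AT3G59130 had the next peaks with HB5, HB6 and HAT22 together (31.7 and 31.9), and were picked after their values were seen. TCP4 had another GBF3 summit in the ABA list (26.6), and AT3G59130 had none.

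At the top of the shared class 40 ABA peaks tied at 141.9 and 20 EtOH peaks at 147.6, and 16 of the 40 overlapped one of the 20. The first 8 by position were at CYP86A4 (a fatty acid hydroxylase of cutin synthesis), AT1G02670, ECA4 (a calcium-transporting ATPase), AT1G12080, ACR8 (an ACT domain protein), CH1 (chlorophyllide a oxygenase, which makes chlorophyll b), DGAT3 (a diacylglycerol acyltransferase) and RSH3 (a synthase of the plastid alarmone ppGpp). Their EtOH peaks had values from 145.6 to 147.6. Between 11 and 19 other factors had an ABA peak over each of them, against 0 to 17 at the ABA-only peaks above.

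By genes, 11845 of 27444 protein-coding genes (43.2%) had a GBF3 summit inside or within 2000 bp in the ABA list, 10389 (37.9%) in the EtOH list and 9996 (36.4%) in both. An ABA-only peak and no other GBF3 summit was found at 1469 genes (5.35%), and an EtOH-only peak and no other summit at 182 genes (0.663%). With lists of equal length these became 577 and 794 genes. Counting genes that also had other GBF3 summits, 2320 genes (8.45%) had an ABA-only peak and 343 (1.25%) an EtOH-only peak. The gene lists below name 290 genes, all in the gene table. Values given for a gene below are the −log10 p of its strongest peak in each list. In each of the 12 lists the share of members with a summit was above that of all genes. The lists were chosen with earlier results of these data known, so this is a description only. Of the lists, 7 had the same number of members with a summit in both treatments, 4 had more under ABA and 1 more under EtOH, with differences of up to 11.5 percentage points. Over all genes the shares were 43.2% and 37.9%. Some of these differences come from shared peaks whose summit was nearest to another gene in 1 list. The direction was not kept by every list at equal list length, where core ABA signalling had 21 members under ABA and 22 under EtOH. GBF2, ABF1, ABF3 and ABF4 also had summits under ABA at a larger share of each of the 12 lists than of all genes. GBF2, for example, had summits under ABA at 19 of 21 clock genes and 25 of 28 dehydration genes, against 29.0% of all genes.

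**Figure D5:**
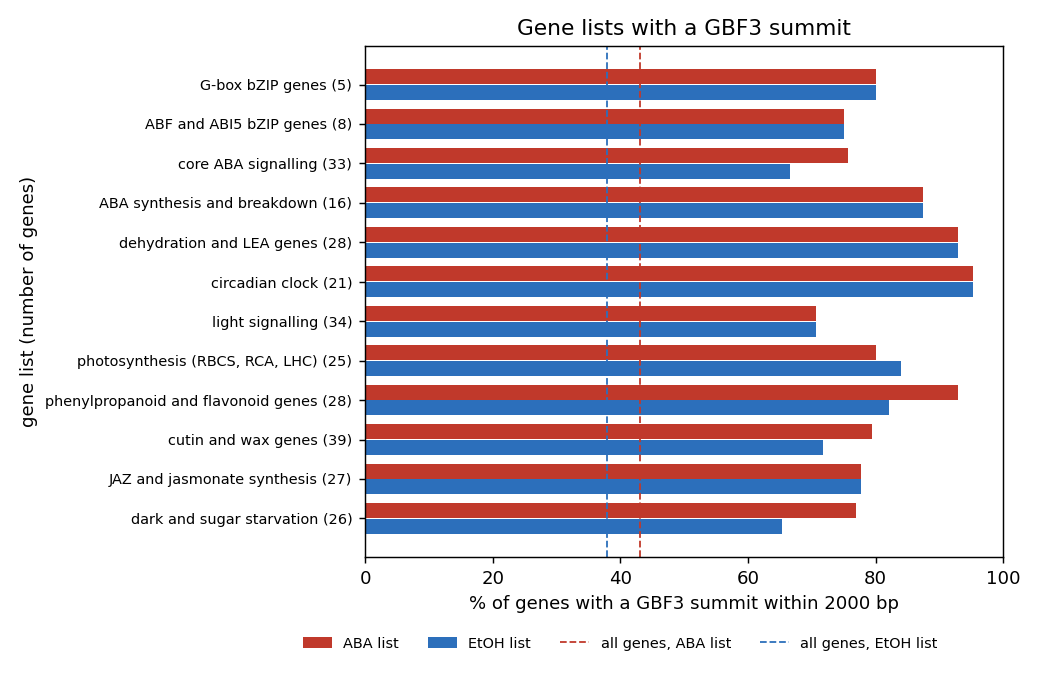
Share of genes of 12 lists (in %, with the number of genes in brackets) that have a GBF3 summit inside or within 2000 bp, in the ABA list (upper bar of each pair) and the EtOH list (lower bar). Dashed lines mark the shares over all protein-coding genes, 43.2% for ABA and 37.9% for EtOH, and every bar lies to the right of its line. The lists were chosen with earlier results of these data known.

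Among the genes of bZIP factors, 4 of 5 G-box factor genes had summits in both lists. GBF2 had the highest value of each list, 141.9 under ABA and 147.6 under EtOH, with the ABA summit 448 bp from the gene, and GBF1 had 139.8 under ABA and 144.2 under EtOH. BZIP68 (78.8 under ABA, 64.9 under EtOH) and BZIP16 (55.4 under ABA, 40.1 under EtOH) were lower, and GBF3 is the exception described above. Of 8 ABF and ABI5 class genes, 6 had summits in both lists, led by ABI5 (115.2 under ABA and 104.9 under EtOH), the main bZIP of seed ABA response, and by ABF3 (103.5 under ABA, 116.5 under EtOH). AREB3 and DPBF2 had none. GBF3 summits were thus found at genes for all 4 of the other bZIP factors measured in the series, ABF1 (72.1 under ABA and 56.0 under EtOH), ABF3, ABF4 (88.0 under ABA, 72.4 under EtOH) and GBF2.

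Of 33 core ABA signalling genes, 25 (75.8%) had a summit under ABA and 22 (66.7%) under EtOH. Of the 14 PYR/PYL receptor genes 10 had one under ABA and 9 under EtOH. PYL6 had the highest values (129.9 under ABA and 124.2 under EtOH), and PYL3, PYL7, PYL10 and PYL11 had none. The clade A protein phosphatases 2C, which hold ABA signalling off without the hormone, had summits at 7 of 9 genes in both lists, with HAI1 (140.5 under ABA, 144.9 under EtOH), HAI2 (140.5 under ABA, 146.3 under EtOH) and ABI2 (127.6 under ABA, 135.9 under EtOH) among the strongest and none at ABI1 or HAB2. Of the 10 SnRK2 kinase genes, 8 had a summit under ABA and 6 under EtOH. SNRK2.3, one of the kinases that carry most of the ABA response, had 133.8 under ABA and 140.6 under EtOH. The members with ABA-only peaks were PYL12 (−log10 p 23.6), SNRK2.2 (18.4), SNRK2.4 (19.4) and SNRK2.9 (24.2). All lay below the ABA values of the shared members, and 2 of them were within 2 units of the threshold. Under EtOH the shared member PYL9 (19.5) was lower than PYL12 and SNRK2.9 under ABA. SNRK2.10 had an EtOH summit (87.8) in a shared peak whose ABA summit fell to another gene.

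Genes of ABA synthesis and breakdown had summits at 14 of 16 genes in both lists. They comprise 8 of 10 synthesis genes, such as NCED3 (126.9 under ABA and 122.7 under EtOH), the stress-induced dioxygenase of the rate-limiting step, and ABA1 (123.0 under ABA, 123.3 under EtOH), with none at ABA2 and AAO3. All 4 CYP707A genes of ABA hydroxylation had summits, with CYP707A2 at 134.9 under ABA and 128.0 under EtOH, and the glucosyltransferase gene UGT71B6 had 138.4 under ABA and 138.0 under EtOH. Of 28 dehydration and LEA genes 26 (92.9%) had a summit in both lists, and COR15B and LEA4-1 had none. COR413-PM1 (140.5 under ABA and 144.2 under EtOH), the dehydrin gene ERD10 (140.5 under ABA, 146.3 under EtOH) and the galactinol synthase gene GOLS2 (140.5 under ABA, 145.6 under EtOH) led. The classic ABA marker genes lay below these leading members and were also bound without the hormone. RAB18 had 92.4 under ABA and 42.04 under EtOH, RD29B 119.5 under ABA and 101.3 under EtOH, and the late embryogenesis gene EM1 91.6 under ABA and 49.4 under EtOH. The −log10 p scales of the 2 lists depend on depth, which is unknown, so no change was drawn from such pairs of values.

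The circadian clock list was the most complete, with summits in both lists at 20 of 21 genes (95.2%) and none only at ZTL. BOA (141.2 under ABA and 145.6 under EtOH) and LUX (137.4 under ABA, 144.6 under EtOH), related components of the evening complex, PRR5 (141.2 under ABA, 146.3 under EtOH) and PRR9 (136.5 under ABA, 142.0 under EtOH), which repress the morning genes, had the highest ABA values, and CCA1 (125.9 under ABA, 136.2 under EtOH) and LHY (127.7 under ABA, 137.8 under EtOH), the morning genes themselves, had lower ones. Of 34 light signalling genes 24 (70.6%) had a summit in each list and 23 in both. PIF4 (139.1 under ABA, 142.4 under EtOH), PAR1 (126.3 under ABA, 136.6 under EtOH), PIF7 (122.8 under ABA, 130.9 under EtOH) and PIF5 (122.4 under ABA, 124.8 under EtOH) led, and all 5 PIF genes listed, whose products promote growth in the dark, had summits. HY5, the bZIP factor of light response, had lower values (36.3 under ABA, 30.8 under EtOH), and its relative HYH had an ABA-only peak (24.2) 1198 bp away. BBX22 had an EtOH summit (84.7) in a shared peak whose ABA summit was nearest to another gene.

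Of 25 photosynthesis genes 20 had a summit under ABA and 21 under EtOH in these dark-grown seedlings. The antenna genes LHCB6 (140.5 under ABA and 147.0 under EtOH), LHCA3 (137.8 under ABA, 142.1 under EtOH) and LHCA4 (132.5 under ABA, 138.2 under EtOH) and the Rubisco gene RBCS3B (132.9 under ABA, 135.2 under EtOH) had the highest ABA values. LHCB4.2 had an EtOH summit (142.8) in a shared peak whose ABA summit fell to a neighbour. RBCS1B, RBCS2B and RBCS3B, like several LHCB1 genes, are nearly identical neighbours, and the labels do not say how reads were divided among them, so which of them holds a peak is uncertain. Jasmonate genes had summits in both lists at 21 of 27 members, 10 of the 12 JAZ repressor genes included. JAZ1 (124.4 under ABA, 115.7 under EtOH), the master regulator gene MYC2 (120.9 under ABA, 121.4 under EtOH), JAR1 (120.6 under ABA, 131.0 under EtOH), which makes jasmonoyl-isoleucine, and NINJA (113.3 under ABA, 104.2 under EtOH), the adaptor of JAZ repression, led, while the receptor gene COI1 had none.

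The phenylpropanoid and flavonoid list had summits at 26 of 28 genes (92.9%) under ABA and 23 (82.1%) under EtOH. 4CL1 (132.0 under ABA and 127.0 under EtOH), an enzyme of the common pathway, and F3'H (131.3 under ABA, 135.2 under EtOH), the flavonoid hydroxylase, were the strongest, ahead of LDOX and the regulator MYB11 (105.3 under ABA, 106.0 under EtOH). LDOX, an anthocyanin enzyme, was counted for ABA alone because the EtOH summit of its shared peak (112.8 under ABA) was nearest to another gene. The members with ABA-only peaks were 4CL2 (38.1), CHS (32.4), the chalcone synthase gene at the entry to flavonoids, and BAN (25.3), an anthocyanidin reductase. The CHS and BAN peaks were 336 and 307 bp wide, with summits inside the genes. EGL3, a bHLH regulator of anthocyanin and hair cell genes, had an EtOH-only peak (23.7) inside the gene.

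Of 39 cutin and wax genes 31 (79.5%) had a summit under ABA and 28 (71.8%) under EtOH. The 4 CYP86A genes of fatty acid hydroxylation that were listed led the list. CYP86A4 had 141.9 under ABA and 147.6 under EtOH, CYP86A7 140.7 under ABA and 145.8 under EtOH, CYP86A8 136.5 under ABA and 142.1 under EtOH, and CYP86A2 133.2 under ABA and 138.5 under EtOH. MAH1 (26.7), a midchain alkane hydroxylase of wax synthesis, and LTP4 (46.2), a lipid transfer protein gene beside the similar LTP3, had ABA-only peaks, and CYP77A4, another fatty acid oxidase, had an EtOH-only peak (21.3). CER2 (98.9) and LTP1 (77.8) were counted for ABA alone because the EtOH summit of the shared peak was nearest to another gene. Of 26 dark and sugar starvation genes 20 (76.9%) had a summit under ABA and 17 (65.4%) under EtOH. TPS11 (141.9 under ABA, 147.6 under EtOH), a trehalose phosphate synthase-like gene, BZIP63 (141.9 under ABA, 145.6 under EtOH), a bZIP of the energy response, and the dark-induced genes SEN1 (139.8 under ABA, 142.8 under EtOH) and DIN10 (138.2 under ABA, 142.6 under EtOH) led. TPS5 (24.9) and MCCB (18.5), a subunit of methylcrotonyl-CoA carboxylase, had ABA-only peaks, and BZIP1 (43.6) was counted for ABA alone because of a shifted summit.

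Across the 290 genes, 12 (4.14%) had an ABA-only peak and no other GBF3 summit and 2 (0.690%) had an EtOH-only peak and no other, near the 5.35% and 0.663% of all genes. The 12 ABA-only values lay between 18.4 and 46.2. The genes of the series' 21 factors were mostly bound in both treatments as well, with AT5G04760 (141.2 under ABA and 142.8 under EtOH), HB7 (137.1 under ABA, 143.5 under EtOH), NFYB2 (136.0 under ABA, 143.7 under EtOH) and ANAC102 (135.0 under ABA, 139.4 under EtOH) the highest beside GBF2. HAT22 was the lowest of them (50.8 under ABA, 21.9 under EtOH). The genes DREB2A (86.3) and MYB44 (146.3) were counted for EtOH alone, each in a shared peak whose ABA summit was nearest to another gene.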

How the data were processed

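ChIP-seq libraries of YPet-tagged GBF3 seedlings, 3 per treatment, took their factor and treatment from their titles. The deposited data are 1 narrowPeak list per factor and treatment, 42 in all. Per the submitters' processing notes, MACS2 2.0.10 and Bowtie 0.12.7 were run and TAIR10 was the genome build, with no roles stated. Per the labels, each library of a group points to the same list, which the authors named for a −log10 p of 16, so replicates could not be compared. Each peak carries the authors' fold enrichment (a ratio) and the authors' −log10 p, used here only for ranking, filtering and description inside 1 list, and the summit position as deposited. The q-value column is -1 throughout and was not used. Without read counts in the files, depth and the precision it gives are unknown. Whether the Col-0 libraries, both labelled as ABA-treated, served the EtOH lists is not stated, and a control under 1 treatment can change the lists unequally.

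GBF3 peaks with a −log10 p of 18 or more were split by overlap of at least 1 bp with Python 3.11.15 and numpy 2.4.6, after a test on simulated peaks. The lists of the other 20 factors were used as deposited for overlap with GBF3 peaks, and at 18 or more for their own split and their genes. Summits were given to the nearest protein-coding gene of an NCBI table (assembly TAIR10.1, no strand) within 2000 bp. Peak coordinates are 1-based. Shares have 95% Wilson intervals, which cover counting error only. Separate cultures for the replicates are not mentioned in the labels. Alternatives were no threshold or 32, stricter overlap, equal list lengths, no peaks over 5000 bp and genes within 1000 bp.

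The members and gene lists were chosen with earlier results of these data known. Genes were named by a rule: the genes at the 8 peaks of highest −log10 p in each class, GBF3, ADH1, RBCS1A, and in each list up to 4 members of highest value in the ABA list and those found in 1 treatment only. Other genes named were chosen after their values were seen. The planned search for G-box and related motifs and the printing of peak sequences were not done, since no genome sequence was used here.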

Additional observations from a re-analysis of the deposited data

How the results depend on the processing

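No paired analysis was possible because the deposited peak lists pool the replicates of a treatment, and for the same reason no replicate could be left out. The motif search and its alternatives were not run. The number of peaks stayed within 1.5 times of its value at every threshold tried, as did all 96 counts of gene list members. Most list members had a summit, so this band says little about differences between treatments. At equal length, core ABA signalling had 21 members with a summit under ABA and 22 under EtOH, and the phenylpropanoid list 22 and 23. The cutin and wax list (30 and 28) and the dark and sugar starvation list (18 and 17) kept more under ABA. The share of ABA peaks that were shared (83.3%) was 86.4% with no threshold, 83.9% at 32, 73.5% with a reciprocal overlap of 50%, 92.7% at equal length and 82.3% without peaks over 5000 bp. That of EtOH peaks (97.1%) was 95.3%, 97.5%, 89.4% and 90% under the first 4 of these. Against the other GBF3 list as deposited, an alternative chosen after seeing the data, 86.4% of ABA peaks were shared. Summits inside genes among ABA-only peaks (51.3%) came to 45.3% at 32, 44.7% with reciprocal overlap and 54.0% at equal length. Without peaks under 400 bp, also chosen after seeing the data, they came to 39.9%, against 35.7% for shared peaks, the smallest gap of all settings. The median share of peaks overlapped by a factor (19.1% for ABA-only, 16.5% for EtOH-only and 58.5% for shared peaks) became 17.1% for ABA-only and 57.4% for shared peaks with no threshold. At 32 it became 30.8%, 24.8% and 65.2%, with reciprocal overlap 11.4%, 11.6% and 45.3%, and without narrow peaks 31.3% for ABA-only and 61.6% for shared peaks. Genes with an EtOH-only peak alone (182) numbered 326 with no threshold and 794 at equal length, where genes with an ABA-only peak alone (1469) numbered 577. At equal length fewer peaks enter the ABA list, while the EtOH list keeps its 13423 peaks. The cause of the shifts was not tested.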
